A study of Mus musculus with 12 samples.

Results

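The 10 genes described here serve amino acid synthesis, amino acid import or mitochondrial one-carbon metabolism. They are known targets of the transcription factor ATF4: *Phgdh*, *Psat1*, *Psph*, *Asns*, *Shmt2*, *Mthfd2*, *Slc7a11*, *Slc7a5*, *Slc3a2* and *Slc1a5*. They were chosen by symbol, and 10 of 10 were found among the 10697 genes of the table. Of these, 6 encode enzymes and 4 encode transporters of the plasma membrane, counting the heavy chain *Slc3a2*. The cells were primary fibroblasts (MAFs) grown out of biopsies of adult wild-type C57BL6/j mice; the number of animals behind them was not given in the labels. They received 100 µM thymol, a phenolic monoterpene of thyme, in DMSO, or the same volume of DMSO, for 24 h (*n* = 6 libraries per group). RNA was read by QuantSeq 3′ sequencing, which tags each transcript once near its end, so that length hardly enters and levels of different genes can be set side by side. Values are log2 CPM, reads scaled to a common library total, a scale on which a difference of 1 is a doubling. The labels do not say whether libraries of a group came from separate cultures or animals, so the p-values measure the spread between these libraries, which may be technical.

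ATF4 is translated preferentially when eIF2α is phosphorylated, as happens in amino acid shortage, endoplasmic reticulum stress or mitochondrial stress. It binds C/EBP-ATF response elements, usually with a C/EBP partner, and raises the genes that supply amino acids and load them onto tRNA. Serine made from a glycolytic intermediate feeds mitochondrial one-carbon metabolism, whereas the transporters bring in cystine, large neutral amino acids and glutamine. In bulk RNA, a change in the share of cells of a type and a change of RNA per cell cannot be told apart.

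The response element was searched as TGATGNAA on both strands, in the window from 250 bases before to 50 bases after the RefSeq start (GRCm38.p6). Of the 10 genes, 8 had a window in the promoter table, *Psat1* with more than 1, and *Slc7a5* and *Slc1a5* had none. The letters were present in 2 of these 8 genes, *Slc7a11* and *Asns*. Counted by window, this was 2 of the 9 windows of the 8 genes, against 3.97% of 32851 promoter windows. The stretches below show those matches, in capitals and 5′ to 3′ on the gene's strand. *Slc7a11* held one copy on each strand, at chr3:50443614-50443719 (minus strand), and *Asns* held a copy at chr6:7693214-7693243 (minus strand), before its RefSeq start but inside the first exon of the GENCODE annotation (chr6:7693109-7693254).

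Slc7a11: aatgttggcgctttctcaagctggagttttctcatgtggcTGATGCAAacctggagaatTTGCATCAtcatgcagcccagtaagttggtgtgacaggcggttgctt

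Asns: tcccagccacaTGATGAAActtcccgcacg

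The antioxidant response element, which binds NRF2 and was searched as TGACNNNGC, occurred in 3 of the 8 genes (*Phgdh*, *Psph* and *Asns*). Counted by window, this was 3 of the 9 windows, against 12.4% of all windows. Both counts describe letters only, and a missing match says nothing about a factor.

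The labelled cell type was checked against its markers. Of 14 fibroblast markers, 12 were in the table (*Lum* and *Fap* were not). Their mean level was 8.77 to 8.82 in the DMSO libraries and 8.67 to 8.75 in the thymol libraries, lower without overlap. Of the 12 differences, 5 were positive and 7 negative. The 2 with an adjusted p under 0.05 were falls, of *Col1a1* by 0.28 and *Col3a1* by 0.54 on the log2 scale (limma, adjusted p = 2.9e-05 and 4.4e-10). The 15 macrophage markers were all detected, at mean levels of 8.27 to 8.35 in DMSO and 8.20 to 8.34 in thymol. Among their differences, 7 were positive and 8 negative. The 2 with an adjusted p under 0.05 were falls, of *Itgam* by 0.31 (limma, adjusted p = 0.000705) and *Cd14* by 0.78 (limma, adjusted p = 7.3e-10). The RNA thus held macrophage transcripts in both groups beside those of fibroblasts. Of 10 epithelial and endothelial markers, 1 was in the table, *Cdh5* at 1.86 in both groups. The mean of 20 DNA replication genes was 4.66 to 4.83 in DMSO and 4.90 to 5.05 in thymol, without overlap, 18 of 20 differences were positive with a median of 0.23, and *Pcna* rose (by 0.49; limma, adjusted p = 0.0175). The part of these markers in the differences given below was not tested.

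After thymol, none of the 10 genes passed the test: 0 had an adjusted p under 0.05 in limma, where 2.22% of all genes did (70 higher and 168 lower). All 10 mean differences were above 0, against 50.9% of all genes. At an unadjusted p under 0.05, 4 were higher (*Psat1*, *Mthfd2*, *Shmt2* and *Phgdh*) and 0 were lower, against 5.35% of all genes higher. By exact permutation over the 924 relabellings of the libraries, 5 were higher at an unadjusted p under 0.05, against 5.09% of all genes. These were the same 4 genes and *Slc3a2* (exact permutation, p = 0.0498), whose limma interval included 0. After adjustment of the permutation p over all genes, 0 of the 10 passed, a test under which 0 genes of the table passed. The median log2 difference was 0.13 over the 10 genes, 0.22 over the 6 enzymes and 0.059 over the 4 transporters, against 0.0026 over all genes. Each gene had libraries of both groups in a shared range, so 0 of 10 were higher without overlap, a pattern shown by 0.524% of all genes.

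**Figure D1:**
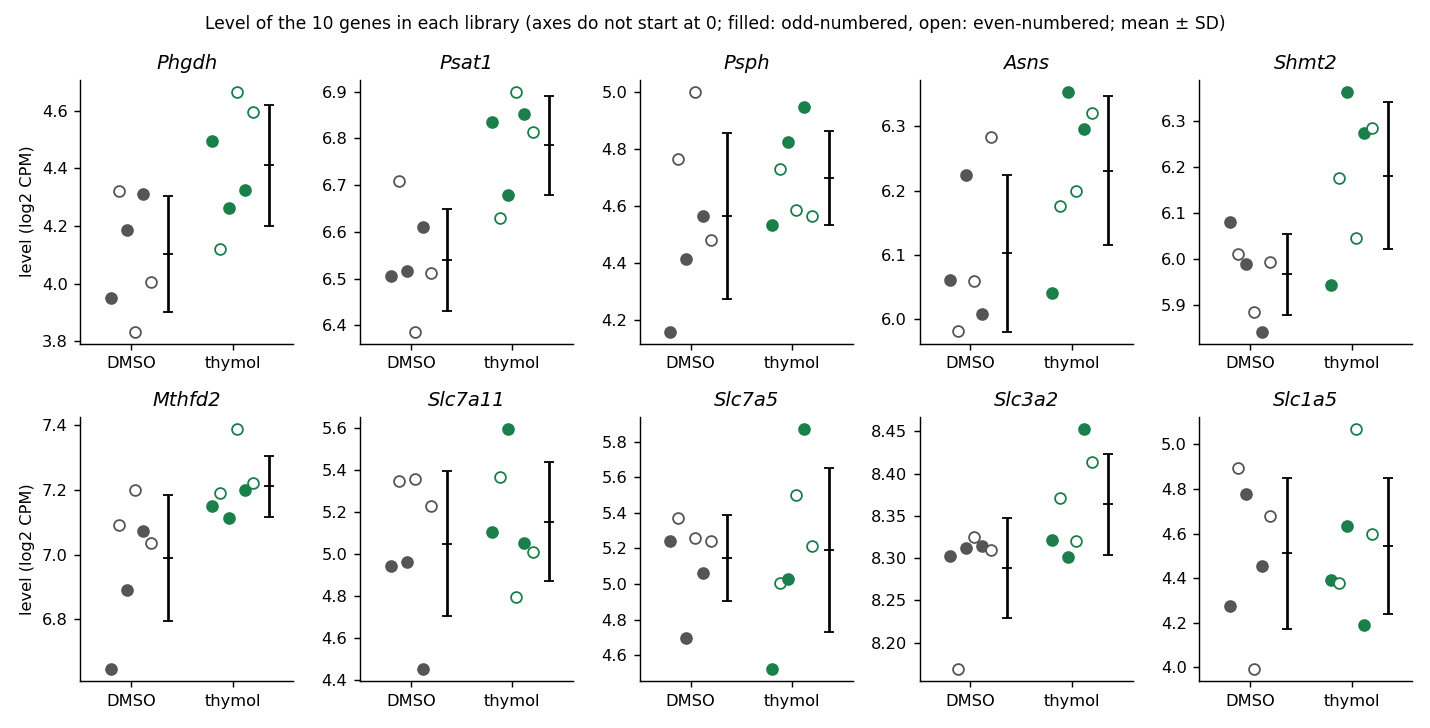
Level of each of the 10 genes in every library, in log2 CPM on the vertical axis, for the 6 DMSO and the 6 thymol libraries, filled points for odd-numbered and open points for even-numbered libraries. The ranges of the groups overlapped for all 10 genes, and *Slc3a2* stood at 8.17 to 8.45, far above *Phgdh* at 3.83 to 4.67.

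*Slc3a2* was the most abundant of the genes in DMSO, at the 95.6th percentile of all genes, followed by *Mthfd2* (85.6th), *Psat1* (79.6th), *Asns* (72.2nd), *Shmt2* (69.9th), *Slc7a5* (52.6th), *Slc7a11* (50.6th), *Psph*, *Slc1a5* (38.8th) and *Phgdh* (30.2nd). *Slc3a2* encodes the heavy chain that carries *Slc7a5* or *Slc7a11* to the membrane, and its level was 8.29 ± 0.059 (SD) against 5.15 ± 0.24 and 5.05 ± 0.34 for these partners. The order held in 6 of 6 DMSO libraries for 5 neighbouring pairs: *Slc3a2* over *Mthfd2* (by 1.30 log2 units), *Mthfd2* over *Psat1* (0.45), *Psat1* over *Asns* (0.44), *Shmt2* over *Slc7a5* (0.82) and *Slc1a5* over *Phgdh* (0.41). Each of these gave the smallest p that an exact sign-flip test of 6 libraries allows, 0.0312 (adjusted over the 9 neighbouring pairs, 0.0563), so no pair passed and the order is given as a description. In the 4 other neighbouring pairs the libraries were not all ordered alike: *Asns* over *Shmt2* and *Slc7a5* over *Slc7a11* held in 4 of 6 libraries, *Slc7a11* over *Psph* in 5 of 6 and *Psph* over *Slc1a5* in 2 of 6. *Phgdh* catalyzes the first step of serine synthesis, and it was the least abundant of the 10 genes.

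In the serine pathway, *Psat1* (chr19:15904678-15947337, GRCm38), the aminotransferase of the middle step, came closest to the threshold. It measured 6.63, 6.82 and 6.90 (lowest, median and highest) in thymol and 6.39, 6.51 and 6.71 in DMSO, and 6 of 6 thymol libraries lay above the DMSO mean. The difference was 0.24 ± 0.074 (SE) on the log2 scale, 1.18-fold with a 95% interval of 1.07 to 1.31 (limma, adjusted p = 0.0665, from 0.0439 to 0.477 over the alternative settings). It passed the threshold when DMSO replicate 2 or thymol replicate 2 was left out, with differences of 0.28 in both cases (adjusted p = 0.0439 and 0.0466).

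*Phgdh* (chr3:98313170-98339990), phosphoglycerate dehydrogenase, measured 4.12, 4.41 and 4.67 in thymol and 3.83, 4.10 and 4.32 in DMSO. The 6 thymol libraries were all above the DMSO mean, and 4 of them were above every DMSO library. The difference of 0.31 ± 0.15 was the largest of the 10 genes, with an interval of 0.0047 to 0.61 and an adjusted p of 0.414 (limma). It rested on few reads, a mean of 137 per thymol library and 120 per DMSO library. *Psph* (chr5:129765558-129787449), the phosphatase that completes serine, measured 4.53, 4.66 and 4.95 in thymol and 4.16, 4.52 and 5.00 in DMSO, so that the DMSO range enclosed the thymol range. Its difference was 0.13 ± 0.14 (limma, adjusted p = 0.804), and the interval, -0.15 to 0.41, holds both no change and a 1.33-fold rise. The difference was 0.052 without DMSO replicate 1, its lowest DMSO library, and 0.22 without DMSO replicate 4, its highest.

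**Figure D2:**
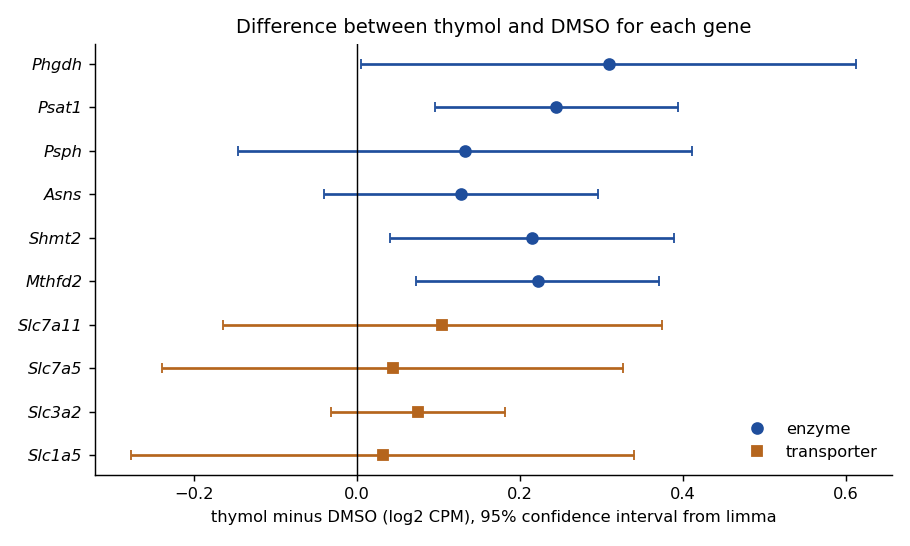
Difference of the mean log2 CPM, thymol minus DMSO, for each of the 10 genes, with 95% confidence intervals. The intervals of *Psat1*, *Mthfd2*, *Shmt2* and *Phgdh* lay above 0, whereas those of the 4 transporters and of *Psph* and *Asns* included 0, and none of the 10 genes passed the test over all genes.

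*Asns* (chr6:7675169-7693254), asparagine synthetase, measured 6.04, 6.25 and 6.35 in thymol and 5.98, 6.06 and 6.28 in DMSO, and 3 thymol libraries were above every DMSO library. Its difference was 0.13 ± 0.084, with an interval of 0.972-fold to 1.23-fold (limma, adjusted p = 0.611). Among the classical ATF4 targets it is often used as a readout of amino acid shortage, and a rise above 1.23-fold lies outside this interval.

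In mitochondrial one-carbon metabolism, *Shmt2* transfers the one-carbon unit of serine to folate and *Mthfd2* oxidizes it. *Mthfd2* (chr6:83305691-83325908) measured 7.11, 7.20 and 7.39 in thymol and 6.65, 7.05 and 7.20 in DMSO, with 3 thymol libraries above every DMSO library. The difference was 0.22 ± 0.074, or 1.17-fold with an interval of 1.05 to 1.29 (limma, adjusted p = 0.117; over the settings run, 0.0477 to 0.601). DMSO replicate 1, at 6.65, was the lowest of the 12 libraries and widened the difference, which was 0.15 without it. *Shmt2* (chr10:127517123-127522444) measured 5.94, 6.22 and 6.36 in thymol and 5.84, 5.99 and 6.08 in DMSO, a difference of 0.22 ± 0.087 (limma, adjusted p = 0.253), and thymol replicate 1 was the thymol library that lay below the DMSO mean.

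The intervals of all 4 transporters included 0. *Slc7a11* (chr3:49892526-50443614), the cystine and glutamate exchanger whose promoter stretch is shown above, measured 4.80, 5.08 and 5.59 in thymol and 4.45, 5.10 and 5.36 in DMSO. The difference was 0.10 ± 0.13 (limma, adjusted p = 0.851), and it was -0.014 when DMSO replicate 5, the lowest of the 12 libraries, was left out. *Slc7a5* (chr8:121881150-121907694), the large neutral amino acid transporter LAT1, measured 4.52, 5.12 and 5.87 in thymol and 4.70, 5.24 and 5.37 in DMSO, with both its lowest and its highest library in the thymol group. Its difference was 0.044 ± 0.14 (limma, adjusted p = 0.960), and leaving out 1 library took it to -0.092 when the highest, thymol replicate 5, was dropped and to 0.18 when the lowest, thymol replicate 1, was dropped.

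*Slc3a2* (chr19:8706882-8723369), their common heavy chain, measured 8.30, 8.35 and 8.45 in thymol and 8.17, 8.31 and 8.33 in DMSO. Its difference of 0.075 ± 0.053 had the narrowest interval of the 10 genes, 0.978-fold to 1.13-fold (limma, adjusted p = 0.653), and it was 0.051 without DMSO replicate 2. *Slc1a5* (chr7:16781340-16798274), the glutamine and neutral amino acid transporter ASCT2, measured 4.19, 4.49 and 5.07 in thymol and 3.99, 4.57 and 4.90 in DMSO. The medians and the means were ordered oppositely, and the difference was 0.031 ± 0.15 (limma, adjusted p = 0.975). No direction can be read for *Slc7a11*, *Slc7a5* and *Slc1a5*, whose sign changed when a single library was left out.

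**Figure D3:**
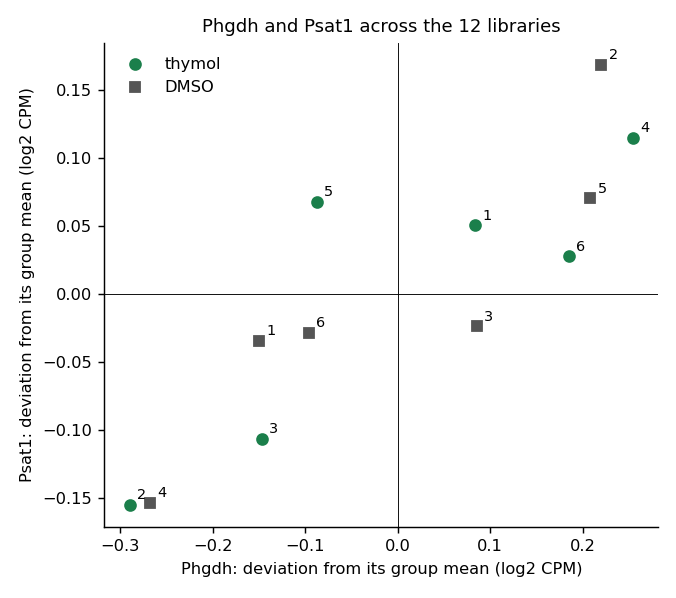
Deviation of *Psat1* from its group mean (vertical axis, log2 units) against that of *Phgdh* (horizontal axis) in the 12 libraries, marked by group. Libraries with more *Phgdh* had more *Psat1* in both groups, with r = 0.87.

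*Phgdh* and *Psat1*, which catalyze neighbouring steps, varied together between libraries. After the group means were removed, their deviations over 12 libraries correlated with a Pearson r of 0.87 (permutation within groups, p = 0.00044, adjusted over 6 pairs 0.00264) and a Spearman rho of 0.92 (permutation p = 0.00011, adjusted 0.00066). The r was 0.84 within the thymol libraries, 0.90 within the DMSO libraries and 0.75 without the libraries farthest from the *Phgdh* median, DMSO replicate 4 and thymol replicate 2. *Psat1* and *Psph*, the next step, did not show this, with an r of -0.15 (permutation p = 0.666, adjusted 0.666), nor did *Shmt2* and *Mthfd2*, with an r of -0.46 (permutation p = 0.0771, adjusted 0.231), although without thymol replicate 1 the latter r was -0.71 (permutation, adjusted p = 0.0206). The transporter partners gave an r of 0.24 for *Slc7a5* with *Slc3a2* (permutation p = 0.489, adjusted 0.586), which was -0.34 without thymol replicates 1 and 5, and of -0.34 for *Slc7a11* with *Slc3a2* (permutation p = 0.299, adjusted 0.562). *Asns* with *Psat1* gave -0.29 (permutation p = 0.374, adjusted 0.562). Over all 45 pairs of the 10 genes, 23 correlations were positive and the median r was 0.0048, so the libraries did not order the 10 genes alike. All of these libraries share 1 scaling, and reads per library ranged from 5435985 to 9049796.

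The differences were also computed apart in the odd- and the even-numbered libraries. Earlier results of these data had shown that odd- and even-numbered DMSO libraries differed, and the labels do not say what the numbers stand for. *Slc7a11* was the member with the largest gap, at 0.46 among the odd-numbered and -0.25 among the even-numbered libraries. Its 3 odd-numbered thymol libraries (5.05 to 5.59) lay above the 3 odd-numbered DMSO libraries (4.45 to 4.96). The share of all genes separated in this way, 3 against 3, was not counted, so nothing is concluded from it. The gap between the odd and the even value of *Slc7a11* was 0.72 ± 0.25 (limma, adjusted p of the interaction = 0.992). *Psph* was at 0.39 and -0.12, with an interaction of 0.51 ± 0.27 (limma, adjusted p = 0.997). *Psat1* differed by 0.24 and 0.25, *Asns* by 0.13 and 0.12 and *Shmt2* by 0.22 and 0.21 in the odd and the even libraries. An interaction at an unadjusted p under 0.05 was seen in 1 of 10 genes, *Slc7a11*, and in 4.96% of all genes, and in 0 genes after adjustment.

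**Figure D4:**
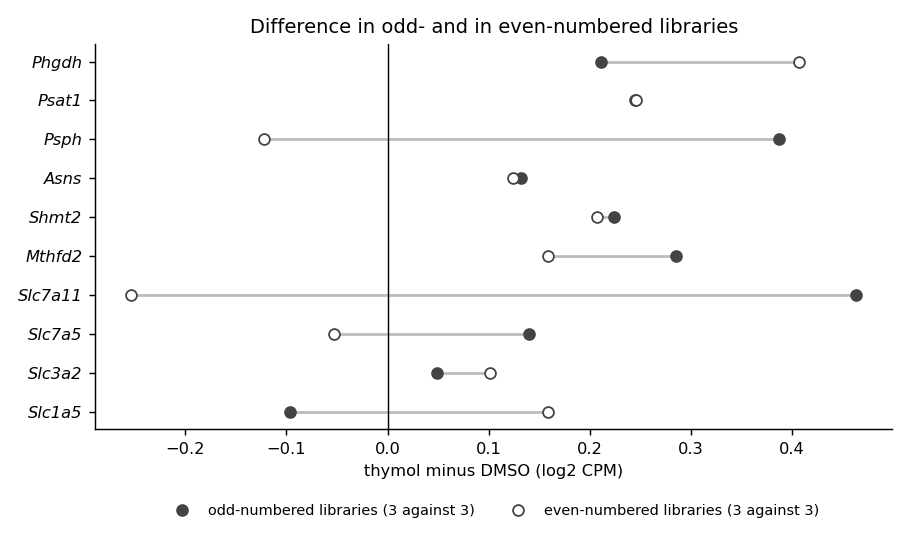
Difference in log2 CPM, thymol minus DMSO, computed in the 3 odd-numbered (filled) and in the 3 even-numbered (open) libraries per group, for each of the 10 genes. *Psat1*, *Asns* and *Shmt2* gave nearly the same value in both sets, whereas *Slc7a11* lay at 0.46 and -0.25.

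Upstream of the 10 genes, *Atf4* itself, chosen with its value known, measured 9.04 ± 0.056 in thymol and 8.998 ± 0.060 in DMSO, a difference of 0.039 ± 0.049 (limma, adjusted p = 0.851). Its activity is set mainly by translation, which transcript levels do not record. Of the 9 genes for ATF4 and its partner factors, 1 was called, *Atf3*, a stress-inducible factor that ATF4 can raise. It rose from 4.78 ± 0.19 to 5.19 ± 0.078, by 0.42 ± 0.12 (limma, adjusted p = 0.0394). Its 6 thymol libraries (5.08 to 5.28) lay above its 6 DMSO libraries (4.58 to 5.02), a pattern of 0.524% of all genes. The call held in 3 of the 12 fits that left out a library (limma, adjusted p from 0.0241 to 0.112). *Cebpb*, a C/EBP partner of ATF4, measured 6.68 ± 0.17 in thymol and 6.90 ± 0.21 in DMSO, a difference of -0.22 ± 0.083 (limma, adjusted p = 0.204), with 0 of 6 thymol libraries above the DMSO mean. *Ddit3*, encoding CHOP, differed by -0.032 (limma, adjusted p = 0.935), and *Trib3*, a feedback inhibitor of ATF4, by 0.073 (limma, adjusted p = 0.955). Both were chosen with their values known. Of 16 genes for the eIF2α kinases and eIF2 factors, 0 were called and the median difference was 0.037, with *Eif2ak4*, the kinase GCN2 that senses uncharged tRNA, at 0.25 ± 0.14 (limma, adjusted p = 0.478).

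Among the genes that share the pathway with the 10, the 20 cytosolic aminoacyl-tRNA synthetases had 15 positive differences, 4 of them at an unadjusted p under 0.05 (*Sars*, *Qars*, *Cars* and *Rars*), 0 lower at that p, 0 called and a median of 0.064. *Sars*, which charges serine tRNA, measured 7.80 ± 0.055 against 7.62 ± 0.055, and the 6 thymol libraries (7.72 to 7.84) lay above the 6 DMSO libraries (7.55 to 7.68; limma, adjusted p = 0.103). The 24 of 26 other ATF4-responsive genes in the table had 17 positive differences, 0 calls and a median of 0.029. *Cebpb* is one of these genes too, and *Ero1a*, an oxidase of the endoplasmic reticulum, differed by 0.20 ± 0.10 (limma, adjusted p = 0.469). Of 23 of 26 other folate and one-carbon genes, 0 were called. *Tyms*, thymidylate synthase, which is also one of the DNA replication genes, differed by 0.36 ± 0.14 (limma, adjusted p = 0.247) and *Mthfd2l*, the paralog of *Mthfd2*, by -0.68 ± 0.30 (limma, adjusted p = 0.321). The value of *Mthfd2l* rested on few reads, a mean of 32 per thymol library and 54 per DMSO library.

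Among 18 of 21 other genes of amino acid synthesis, 13 of 18 differences were negative, 0 were called and the median was -0.052. *Glul*, which makes glutamine, measured 6.89 ± 0.097 against 7.12 ± 0.11 (limma, adjusted p = 0.0627). *Cth*, which releases cysteine, chosen with its value known, differed by 0.42 ± 0.23 (limma, adjusted p = 0.5002). Its reads were few, a mean of 68 per thymol library and 54 per DMSO library. The 10 of 12 genes of cystine use and glutathione in the table had 0 calls and a median of 0.012.

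Of 20 of 28 other amino acid transporters, 1 was called. *Slc7a8* encodes LAT2, the other large neutral amino acid carrier that pairs with the *Slc3a2* chain. It fell from 5.35, 5.58 and 5.83 (lowest, median and highest) in DMSO to 4.84, 5.15 and 5.34 in thymol, without overlap, by 0.44 ± 0.11 on the log2 scale (limma, adjusted p = 0.0128). The share of all genes that were lower without overlap was not counted, so nothing is concluded from that separation. The call was lost without DMSO replicate 2 (adjusted p = 0.0616). Its partner chain *Slc3a2* and its paralog *Slc7a5* differed by 0.075 and 0.044, as given above; the difference between these genes' responses was not tested.

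**Figure D5:**
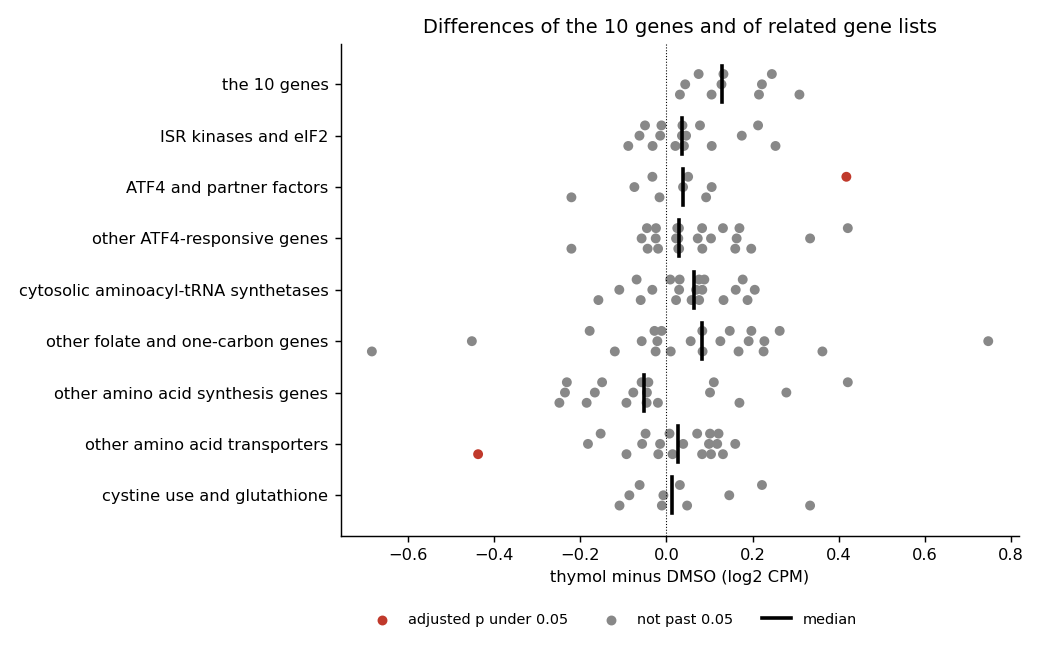
Log2 differences, thymol minus DMSO, of the genes of each related list, one point per gene and a line at the median of the list, with the 10 genes for comparison. The medians of the 8 lists drawn lay between -0.052 and 0.083, and that of the 10 genes at 0.13; the called genes *Atf3* at 0.42 and *Slc7a8* at -0.44 are drawn in red.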

How the data were processed

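Each of 12 QuantSeq 3′ libraries had 1 column, mapped by library name. The authors aligned reads to GRCm38 with STAR 2.5.3, counted them per gene with HTSeq 0.6.1, dropped unannotated and rarely read genes, and applied TMM scaling. The deposited values are log2 CPM with a prior count. The sequencing depth was recovered from the steps between values: 100% of the values below 200 reads fell no more than 0.02 from a whole read, totals ran from 5435985 to 9049796 reads, and the prior was 1.96 reads. Low counts therefore have fold changes pulled towards 0. The strand setting of the counting was not given in the sources used here, so antisense partners could not be separated.

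Differences were fitted over all 10697 genes with limma 3.58.1 in R 4.3.3 (lmFit, eBayes with trend, no covariate, two-sided, Benjamini-Hochberg, threshold 0.05), and tested on simulated data. Exact permutation used 924 relabellings, and correlations used 100000 permutations within groups. Python 3.11.15, SciPy 1.17.1 and pandas 2.3.3 wrote the tables. The 10 members, the lists and the odd and even split were chosen with earlier results of these data known. The text names all members, the called genes of each other list or else the 2 with the smallest p, and the 5 genes most alike, except where a gene is said to be chosen with its value known. *Cars* and *Rars* were also chosen in this way. One gene that the rule names is not reported here. Motifs were searched in RefSeq promoter windows. Alternatives were the trend, a pseudocount of 10, a filter at a mean of 5, median centring, quantile normalization, voom on recovered reads, the replicate block, the odd or even number, an exact rank-sum test and leaving out each library. The alternatives for *Slc7a8* and *Atf3* were added after their values were seen.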

Additional observations from a re-analysis of the deposited data

Results flagged for a closer look

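Of 26 groups of 6 libraries, 2 held a library far from its group (Dixon's test), and chance gives about 1 in 20. *Slc3a2* was at 8.17 in DMSO replicate 2, against 8.30 in the nearest DMSO library. The mean of the macrophage markers was 8.34 in thymol replicate 1, against 8.24 in the nearest thymol library.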

How the results depend on the processing

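None of the 10 genes passed the threshold under most settings. One did so among genes with a mean of at least 5 (1 member, *Psat1*, 0.24), with a replicate block (1 member, *Mthfd2*, 0.22, adjusted p = 0.0481 in limma), and in 3 of the fits that left out a library (range 0 to 1). Those fits gave 0.21 to 0.28 for *Psat1*, 0.15 to 0.26 for *Mthfd2*, 0.052 to 0.22 for *Psph*, -0.014 to 0.18 for *Slc7a11*, -0.092 to 0.18 for *Slc7a5* and -0.074 to 0.11 for *Slc1a5*. The genes called over the table numbered 57 without a mean-variance trend, 70 in the odd-numbered libraries alone and 0 by exact rank-sum test, against 238 (and 172 to 270 without 1 library, 332 with the replicate block). The even-numbered libraries alone gave -0.12 for *Psph*, -0.25 for *Slc7a11* and -0.053 for *Slc7a5*, and *Slc1a5* was at -0.096 in the odd-numbered ones and -0.0052 with voom. The correlation of *Slc7a5* and *Slc3a2* ranged from -0.14 to 0.55 without 1 library, and that of *Psat1* and *Psph* from -0.39 to 0.24. The cause of these shifts was not tested. *Phgdh*, *Psat1*, *Asns*, *Shmt2*, *Mthfd2* and *Slc3a2* kept their direction under every setting run for them. Libraries of the same number correlated from -0.051 to 0.27, with 3 of 12 closest to their own number, so the numbers were not taken as pairs, and the replicate block changed no other member's call. Without the mean-variance trend the calls of *Slc7a8* and *Atf3* were lost (limma, adjusted p = 0.0761 and 0.0639), as they were in either set of odd or even libraries alone. The exact rank-sum test cannot decide about these calls. Both genes had the smallest p that 6 against 6 libraries allow (exact rank-sum test, p = 0.00216). It adjusts to 0.129 over all genes, so no gene of the table could pass. With 6 libraries per group, the intervals of the transporters do not separate a small rise from none.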

Other observations

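The deviations of the 10 genes from their group means were each divided by their standard deviation and averaged in each of 12 libraries. Among 5387 genes with a mean of at least 5, the 5 whose deviations followed this average most closely were *Acer3* (r = 0.95), *Rcc2* (0.88), *Ndufb6* (0.88), *Prelid3b* (0.87) and *Gsr* (0.86). The r is with the average, not with each of the 10 genes. This is a description with no test, over libraries that share their scaling, and it says nothing of shared function.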
